A study of Homo sapiens with 6 samples.

Results

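The sites described here are stretches of open chromatin that were called in every ZNF436 knockdown library and in no control library, and that lay more than 100 kb from every site called in all 6 libraries. They were found by ATAC-seq, a method that reads open chromatin from the places where the enzyme Tn5 can insert adapters, in 6 libraries of ventricular-like cardiomyocytes at day 15 of differentiation. All 6 came from H9, 1 line of human embryonic stem cells: 3 libraries were control cultures and 3 had knockdown of ZNF436, each an independent differentiation per the labels. The labels do not say how the knockdown was made or what the control cells received, and with 1 line the results describe that line. Joining peaks of the 6 deposited lists wherever they had 1 bp or more in common gave 153162 regions on chromosomes 1 to 22. The 27889 of them with a peak from every library are named shared regions below. Of the 11831 regions called in 3 of 3 knockdown and 0 of 3 control libraries, the 2098 that passed the distance limit are the members. They were chosen by the peak calls of the 6 libraries, so their presence in knockdown and absence in control is the rule and no finding. The cell type was not checked against cardiac marker genes, because no gene annotation of hg19, the build of the lists, was used here.

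ZNF436 belongs to the KRAB zinc finger proteins, a large family of DNA-binding repressors. Such proteins are known to bind sequences derived from transposable elements and to recruit the corepressor TRIM28, which brings in enzymes that lay down repressive histone marks. Most open sites of a cell sit at promoters or in enhancers near active genes, so that sites far from such shared sites fall largely in gene-poor stretches or inside very long genes. The title of the series places the comparison in the control of regulatory elements that derive from transposons. Whether the members are transposon copies was not tested, since it needs the sequence or the repeat map of hg19.

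The 2098 members made up 17.7% of the knockdown-only regions and covered 759.3 kb in all. Over all 153162 regions, 7.72% were called in 3 of 3 knockdown and 0 of 3 control libraries, against 11.4% of the 18412 regions beyond the limit and 9.11% of the unshared regions within it. The rule used these calls, so the percentages are given as a description. With the groups exchanged, 26 regions beyond the limit were called in 3 of 3 control and 0 of 3 knockdown libraries (0.141% of the distant regions, against 0.129% of all regions and 0.16% of the unshared regions within the limit). The knockdown lists are longer, with 87871 to 115864 peaks against 50719 to 68342 in control, and depth is unknown, so that depth, signal over background and the group cannot be told apart. With every list cut to the 50719 highest-scoring peaks, the rule gave 552 knockdown-only and 170 control-only distant regions, a ratio of 3.25 against 80.7 for the lists as deposited. Of these 552, 412 overlapped a member, which is 74.6% of the 552 and 19.6% of the 2098. The count moved with single libraries as well: it was 2001, 1897 and 3172 if control replicate 1, 2 or 3 was left out. Without knockdown replicate 1, 2 or 3 it was 2425, 2900 and 3915. Fewer libraries then had to meet the rule. Leaving out control replicates 1, 2 or 3 gave 48, 44 or 117 control-only regions, and leaving out knockdown replicates 1 or 2 gave 44 or 41.

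The part of the genome beyond 100 kb from shared regions held few peaks in control cells and more in knockdown cells. The control libraries held 2201, 2281 and 4118 peaks there (replicates 1, 2 and 3), which were 4.47, 4.38 and 6.2% of their autosomal peaks. The knockdown libraries held 12764, 10206 and 8166 such peaks, or 11.3, 10.3 and 9.56%. The groups did not overlap, and control replicate 3 stood nearest to knockdown. It was also the longest control list, with 66461 autosomal peaks against 49187 and 52032 in replicates 1 and 2. Among the knockdown lists, of 112590, 99561 and 85394 autosomal peaks, the share likewise fell with length. Control libraries averaged 5.02 ± 1.03% (SD, n = 3) and knockdown libraries 10.4 ± 0.873% (SD, n = 3), and no test is given because the members are among these peaks. With lists of equal length the shares were 6.69, 6.34 and 6.93% in control and 9.01, 8.56 and 8.7% in knockdown, again without overlap but closer together. Peaks inside members were 2118, 2120 and 2115 in the 3 knockdown lists, or 1.88, 2.13 and 2.48% of the autosomal peaks.

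**Figure D1:**
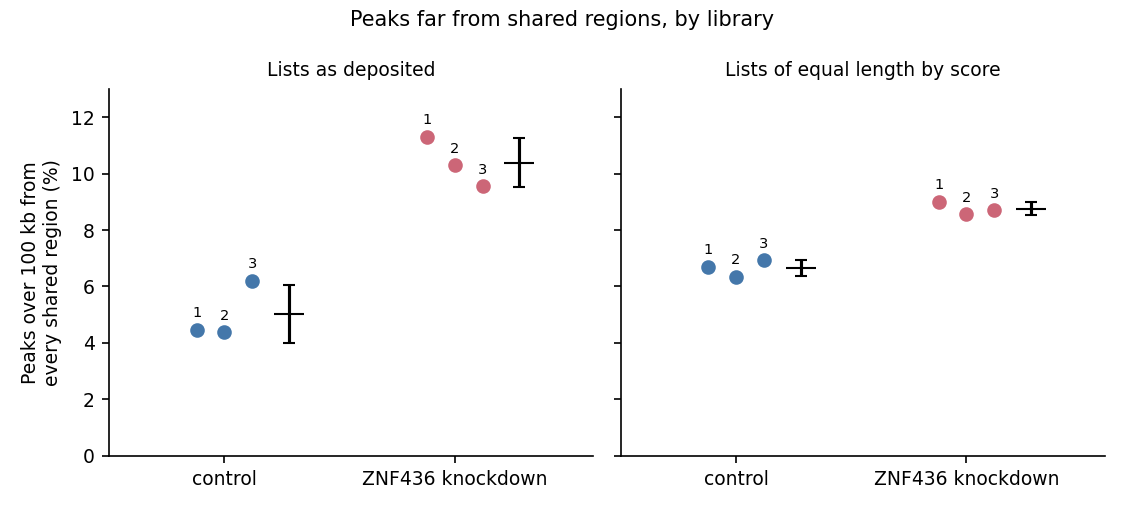
Share of each library's autosomal peaks that lay over 100 kb from every shared region, for the lists as deposited (left) and cut to equal length by score (right); points are libraries with their replicate number, and the black marks are mean and SD of 3. Control libraries sit at 4.38 to 6.2% and knockdown libraries at 9.56 to 11.3% on the left, and at 6.34 to 6.93% and 8.56 to 9.01% on the right.

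The further a reproducible knockdown site lay from shared regions, up to 1000 kb, the more often no control library called it. Of the regions called in all 3 knockdown libraries but not in all 6, 31.5% had no control call within 10 kb of a shared region, 35.1% between 10 and 50 kb and 38.2% between 50 and 100 kb. Among distant ones it was 40% between 100 and 200 kb, 41.5% between 200 and 500 kb and 46.5% between 500 and 1000 kb. Beyond 1000 kb it was 42.6%, which rests on 26 members among 61 regions. Taken over the limit as a whole, 2098 of 5114 distant regions (41%) and 9733 of 28417 near regions (34.3%) lacked a control call. In the exchanged comparison, 26 of 142 distant regions called in all 3 control libraries (18.3%) and 171 of 1193 near ones (14.3%) lacked a knockdown call. The share without a call in the other group was thus higher beyond the limit in both directions. The rule used these calls, so no test was made.

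**Figure D2:**
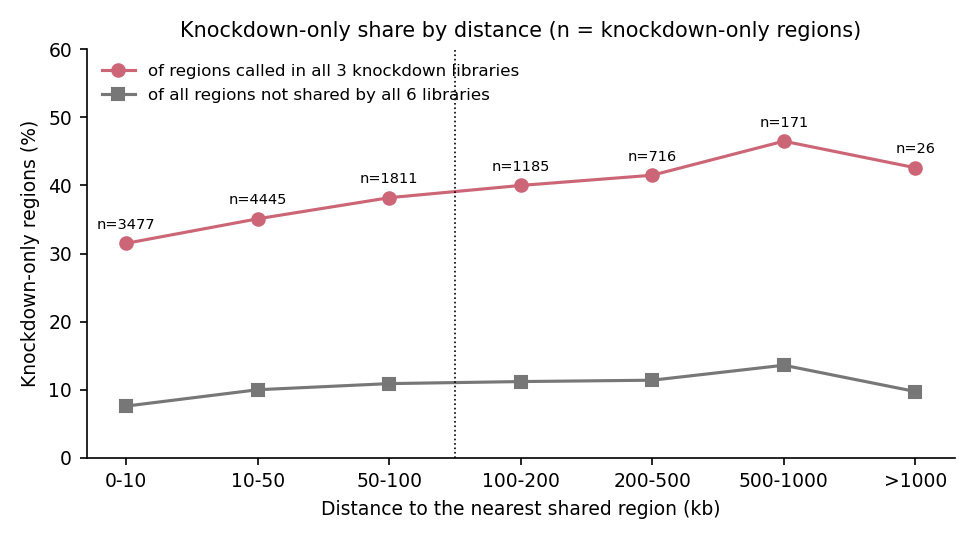
Knockdown-only regions as a percentage of regions called in all 3 knockdown libraries (circles) and of all unshared regions (squares), by distance from the nearest shared region in kb; the dotted line is the 100 kb limit, and the numbers are knockdown-only regions in each class. Circles climb from 31.5 to 46.5% and end at 42.6%, and squares from 7.6 to 13.6% and end at 9.74%.

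Members were narrow sites of middling rank. Their median width was 332 bp, with a 10th percentile of 213 bp, a 90th of 547 bp and a full range of 135 to 1316 bp. Near knockdown-only regions had a median of 359 bp and shared regions one of 875 bp, but shared regions join peaks of 6 libraries and the others of 3. Single peaks in shared regions had medians of 669, 623 and 590 bp in knockdown replicates 1, 2 and 3. Single peaks in members had median widths of 262.5, 229 and 214 bp in knockdown replicates 1, 2 and 3, against 272, 236 and 223 bp in near knockdown-only regions. The difference was -9.5, -7 and -9 bp, a mean of -8.5 ± 1.32 bp (SD, n = 3), so that all 3 libraries had the narrower peaks at the distant sites. An exact permutation test over the 3 libraries, two-sided by sign flips, gave p = 0.25, the smallest value that 3 pairs allow, so this test cannot pass 0.05. The libraries also differed among themselves, from 262.5 to 214 bp at the members, by more than the distant and near sites differed in any of them.

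The score that the authors' peak caller gave each peak was turned into a percentile, the share of peaks in the same list with that score or a lower one. Peaks in members had median percentiles of 53.7, 47.6 and 39.9 in knockdown replicates 1, 2 and 3. Peaks in near knockdown-only regions stood at 50.3, 43.7 and 39.9, and peaks in shared regions at 85.9, 84 and 80.4. The distant sites thus ranked 3.42, 3.87 and 0 points above the near ones, a mean of 2.43 ± 2.12 points (SD, n = 3; exact permutation test, two-sided, p = 0.5), and with lists of equal length the mean was 0 points. Distant regions with all 3 knockdown calls and 1 or 2 control calls ranked above the members, at 66.3, 62 and 56.3. Few members were strong: 8.59, 4.53 and 2.41% of their peaks lay above the 75th percentile of their list. Few were at the very bottom in replicate 1, with 7.37% of peaks below the 25th percentile, against 17.2 and 20.9% in replicates 2 and 3.

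**Figure D3:**
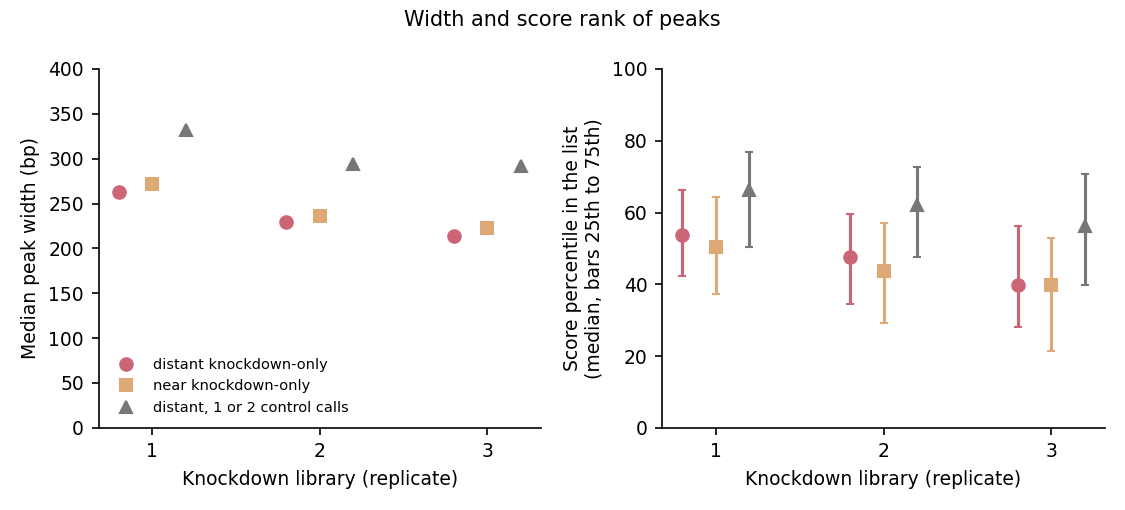
Median peak width in bp (left) and score percentile within the list (right, median with bars from the 25th to the 75th percentile) in the 3 knockdown libraries, for distant knockdown-only regions, near knockdown-only regions, and distant regions with 1 or 2 control calls. Members are slightly narrower than near sites in each library (by 7 to 9.5 bp), and both lie below the sites that control libraries also called.

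The peaks of the 3 knockdown libraries coincided over part of a member's bases. The rule required some overlap, directly or in a chain. In the median member, 52.5% of the width was covered by a peak of each of the 3 libraries (quartiles 39.1 and 66.8%), against 48.6% in near knockdown-only regions (quartiles 34.3 and 63.3%). In 2050 of the 2098 members (97.7%) each library contributed a single peak. In 25 members no base was covered by all 3 libraries, because peaks of different libraries were chained by partial overlaps. In rank the libraries differed as well: the highest and lowest percentile of a member lay 22.2 points apart in the median. Near knockdown-only regions had the same median spread, 22.2 points. The lowest of the 3 percentiles was above 75 in 18 members and above 50 in 425 (20.3%, against 16% of near knockdown-only regions), and in 34 members the highest of the 3 was below 25.

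Of the 5 members that ranked highest in all 3 lists, 4 on chromosomes 1 and 15 are described. At chr1:88646233-88646608 the percentiles were 86.99, 87.83 and 83.38 in knockdown replicates 1, 2 and 3. The site chr1:218069254-218069507 had 85.29, 83.99 and 81.48. For chr1:72644007-72644295 they were 80.81, 82.6 and 85.69, and it lies in the known position of NEGR1, a neuronal growth regulator of the cell surface. Another was chr15:47253955-47254342, with 86.46, 81.09 and 80.44, in the gene-poor stretch before SEMA6D, a membrane-bound semaphorin. Their widths were 376, 254, 289 and 388 bp, on both sides of the median of 332 bp. The 4 also differed in isolation, since the nearest control call was 4.499, 38.52, 103.5 and 41.24 kb away. All gene names in this text rest on general knowledge of the hg19 map and not on a measured overlap; each of the 46 symbols looked up was found on the stated chromosome in RefSeq's gene table, which is of build GRCh38 and gave no positions here.

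The limit of 100 kb cuts through a continuous range of distances. The 3 members just inside were chr11:133295990-133296567, chr12:95125789-95126570 and chr7:114461202-114461922, at 100.013, 100.016 and 100.216 kb from a shared region. The 3 knockdown-only regions just outside were chr1:192609160-192609453, chr5:143162096-143162693 and chr8:25434572-25435123, at 99.948, 99.947 and 99.931 kb. Widths were 578, 782 and 721 bp inside and 294, 598 and 552 bp outside, with no test.

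Distance from shared regions did not mean distance from every control peak. The median member lay 180.7 kb from a shared region but 40.4 kb from a region called in at least 1 control library, and 440 members (21%) had such a call within 10 kb. Near knockdown-only regions had one within 10 kb in 61.1% of cases. In 83 members (3.96%) a control call lay within 1 kb, and the member chr9:83839136-83839388 was 0.002 kb from one. At the other end, 529 members (25.2%) had no control call of any kind within 100 kb. The most isolated was chr4:136496279-136496466, a site of 188 bp with percentiles of 50.28, 47.61 and 39.91, which was 793.9 kb from the nearest control call and 1372.88 kb from a shared region. The greatest distance from a shared region, 1487.97 kb, was that of chr4:29229504-29229844, which ranked at 68.21, 59.66 and 59.42.

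Along the chromosomes the members were mostly scattered. Each lay a median of 184 kb from the next member, and 833 (39.7%) had another member within 100 kb, 179 of them within 10 kb. Chained at gaps of up to 100 kb, 1265 members (60.3%) stood alone, 586 (27.9%) formed 293 pairs, 189 formed 63 groups of 3, 48 formed 12 groups of 4, and 10 formed 2 groups of 5. The near knockdown-only regions, which are more numerous, had a neighbour of their kind within 100 kb in 70.6% of cases. The number of groups with at least 5 members depended on the libraries used: it was 5 and 27 when control replicate 1 or 3 was left out, 6, 9 and 45 when knockdown replicate 1, 2 or 3 was, and 0 with lists of equal length.

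The 2 groups of 5 lay on chromosomes 1 and 11. The first, chr1:176770171-176873791, spans the known ends of PAPPA2, a protease that cleaves insulin-like growth factor binding proteins, and ASTN1, an adhesion protein of migrating neurons. Within these 104 kb the control libraries had 0, 0 and 5 peaks and the knockdown libraries 12, 10 and 8. All control peaks here came from replicate 3, and the nearest lay 0.34 kb from a member. Its highest-ranked member was chr1:176772218-176772522, with percentiles of 77.9, 72.7 and 76.8. With lists of equal length 2 of the 5 members remained, and the peaks were 0, 0 and 2 in control and 6, 6 and 4 in knockdown. The other group, chr11:106317676-106354458, packs 5 members into 36.8 kb between AASDHPPT, an enzyme that activates acyl carrier proteins, and GUCY1A2, a subunit of the nitric oxide receptor soluble guanylate cyclase. Control libraries had 1, 0 and 0 peaks there and knockdown libraries 9, 9 and 6. Its widest member, chr11:106317676-106318594, measured 919 bp and ranked at 42.2, 47.6 and 49.1. None of its 5 members remained with lists of equal length, though each knockdown list still held 3 peaks there and the control lists 1, 0 and 0.

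The 12 groups of 4, like the groups of 3 below, were picked for description after their values were seen. The most compact, chr18:39878836-39902529, held its 4 members within 23.7 kb of the stretch between PIK3C3, the class III phosphoinositide 3-kinase of autophagy, and RIT2, a small GTPase of neurons. Each knockdown library had 5 peaks there, against 1, 0 and 0 in control. The member chr18:39885739-39886127 was the strongest of them, at 74.4, 66.1 and 64.6. On chromosome 5, chr5:146396867-146478335 lies at the known start of PPP2R2B, a regulatory subunit of protein phosphatase 2A in brain. It had 0 control peaks in all 3 libraries and 8, 8 and 7 knockdown peaks, yet its members were weak, with lowest percentiles of 11.4 to 14.2, and with lists of equal length no library had a peak in it. The group chr7:46392047-46496223, in the gene desert between IGFBP3 and TNS3, likewise had 0 control peaks in each library and 5, 4 and 4 in knockdown, of which 2, 3 and 2 remained with equal lists. At chr7:84631780-84695517, in the known position of SEMA3D, a secreted guidance cue for axons and endothelial cells, the peaks were 2, 0 and 2 in control and 6, 6 and 5 in knockdown.

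Further groups of 4 are given with the genes known to lie at or beside them. The group chr5:90368755-90459039, in the region of the adhesion receptor gene ADGRV1, had 2, 1 and 4 control peaks and 9, 9 and 9 knockdown peaks. For chr12:44701265-44774021, in the region of TMEM117, they were 0, 0 and 1 against 5, 5 and 5. At chr15:101986404-102043183, by the proprotein convertase gene PCSK6, there were 0, 1 and 3 against 7, 10 and 6. The group chr15:54123075-54269365 lies between WDR72 and UNC13C, a priming factor of synaptic vesicles, and had 0, 0 and 2 against 6, 5 and 5. At chr10:50189354-50298159, in the region of VSTM4, there were 0, 0 and 1 control peaks and 8, 7 and 8 knockdown peaks. In all of these the knockdown libraries exceeded the control libraries, as the choice of members fixes, and where control peaks occurred most were those of replicate 3. With lists of equal length the control and knockdown peaks were 2, 0 and 4 against 6, 6 and 7 at ADGRV1, 0, 0 and 0 against 3, 1 and 3 at TMEM117, and 0, 1 and 1 against 3, 4 and 3 by PCSK6. They were 0, 0 and 0 against 2, 3 and 2 at VSTM4, but 0, 0 and 2 against 1, 1 and 2 before UNC13C, where the groups then overlapped. The 3 remaining groups of 4 were chr18:35542378-35620247, chr3:94605976-94685781 and chr6:153928750-154049349, with 1.76, 21.3 and 5.57 as the lowest percentile of any member. With equal lists their peaks were 0, 2 and 0 against 1, 2 and 1, then 0, 0 and 1 against 2, 2 and 0, and 1, 0 and 1 against 2, 2 and 2, so that the first and second of them overlapped between the groups.

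Some groups of 3 were tighter than any larger group, and the 5 tightest had no control peak within their span. Members hold no control peak by the rule. Control lists held 2201 to 4118 peaks beyond the limit, in about 990.6 Mb, so a short span often holds none. The next tightest group, chr12:15081986-15105606 of 23.6 kb, had 1, 0 and 1 control peaks. At chr6:117249941-117255046, 3 members lay within 5.11 kb at or beside the known position of RFX6, a transcription factor of pancreatic endocrine and gut endoderm cells. The control call nearest to these 3 members was 163 kb away. Their widths were 242, 297 and 330 bp. The first of them, chr6:117249941-117250182, ranked at 68.2, 47.6 and 49.1. Another 3 lay at chr12:40211677-40226057, in the region of the myo-inositol transporter gene SLC2A13, with the nearest control call 198 kb away and percentiles of 75.7, 71.2 and 62.1 for chr12:40225742-40226057. At chr21:39848187-39862922, in the known position of ERG, an ETS transcription factor of endothelial cells, the 3 members measured 409, 286 and 276 bp, and the nearest control call was 12.6 kb away. The 3 at chr11:112985132-113003029 lie in the region of NCAM1, the neural cell adhesion molecule, and those at chr17:11125191-11144840 before and at the known start of SHISA6, an auxiliary protein of AMPA receptors. The last group held the wide site chr17:11143911-11144840 of 930 bp, which ranked at 26.4, 34.6 and 34.2. With lists of equal length 1 of the 15 members of the 5 tightest groups remained, at SLC2A13. The 3 control lists then had 0 peaks in each of these 5. Knockdown replicates 1, 2 and 3 had 1, 0 and 2 peaks at RFX6, 2, 1 and 1 at SLC2A13 and 3, 1 and 1 at ERG. They had 2, 1 and 0 peaks at NCAM1 and 0, 0 and 0 at SHISA6. At RFX6, NCAM1 and SHISA6 the groups thus overlapped. In the next tightest, chr12:15081986-15105606, 2 of 3 members remained. Peaks there were 1, 0 and 1 in control and 2, 3 and 2 in knockdown.

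A second view used the stretches between neighbouring shared regions, of which 3250 were longer than 200 kb and could hold a member. Of these, 1173 (36.1%) held at least 1 and 651 exactly 1, while 41 held 5 or more, with 232 members in all (11.1%). Another 3 members lay before the first or after the last shared region of a chromosome. Longer stretches more often held a member, from 12.5% of those of 0.2 to 0.3 Mb to 78.3% of those of 1 to 2 Mb and 66% of those above 2 Mb. Counted per Mb of territory beyond the limit, however, members thinned out with length, from 3.55 in stretches of 0.2 to 0.3 Mb to 2.46 at 0.5 to 1 Mb, 1.75 at 1 to 2 Mb and 0.701 above 2 Mb. Parts of the longest stretches that cannot be mapped, such as centromeres, were not removed, and the longest, of 21.05 Mb, held 0 members.

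**Figure D4:**
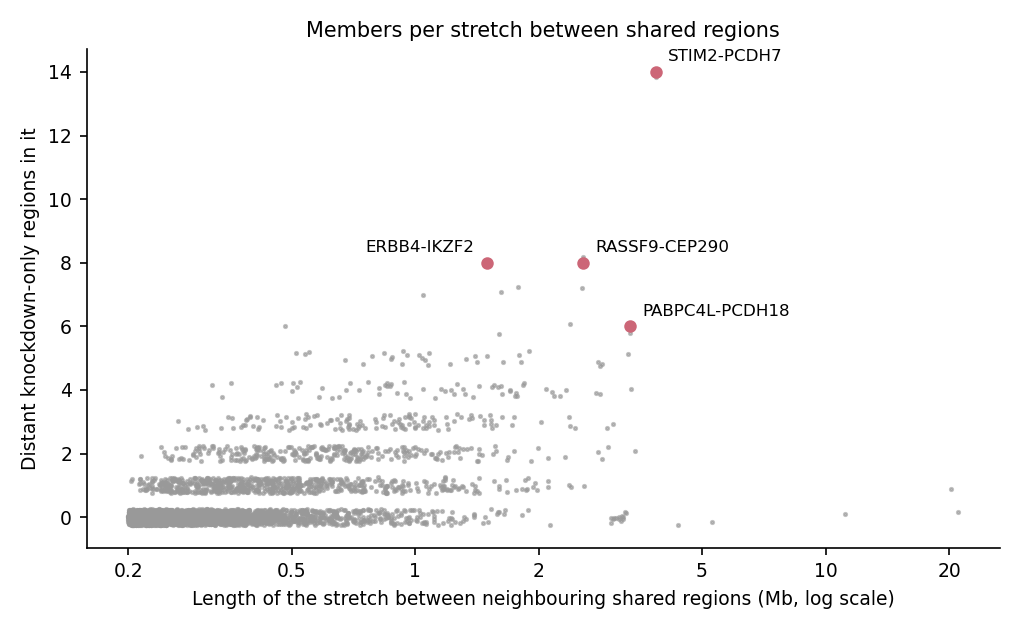
Number of members in each of the 3250 stretches between neighbouring shared regions longer than 200 kb, against the length of the stretch in Mb (log scale); grey points are stretches, spread slightly in height so that they can be seen, and named red points are 4 stretches described in the text by the genes at their ends. The stretch from STIM2 to PCDH7 stands apart with 14 members, and all other stretches hold 8 or fewer.

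The stretch with the most members runs from the known start of STIM2, a calcium sensor of the endoplasmic reticulum, to that of PCDH7, a protocadherin of cell adhesion, at chr4:26863722-30717818. In RefSeq's gene order 1 protein-coding gene, LOC124900844, lies between the pair. Over its 3.854 Mb the control libraries had 4, 0 and 8 peaks and the knockdown libraries 49, 36 and 32, in 60 regions of which 14 were members and 11 had any control call. The stretch was chosen for its members, whose own peaks are in these counts, so no test was made. Over the whole genome beyond the limit, control libraries held 2201 to 4118 peaks and knockdown libraries 8166 to 12764. The members reached across the desert, but not evenly: 3 of them lay within 93.3 kb, at chr4:29229504-29322799. Among the 14 were chr4:27309927-27310486, chr4:28289448-28289911, chr4:29229504-29229844 and chr4:30555238-30555704. The widths of the 14 ran from 222 to 648 bp. The lowest percentile ran from 7.11 to 59.4, the last at chr4:29229504-29229844. With lists of equal length the stretch held 4, 0 and 3 control peaks and 14, 11 and 15 knockdown peaks, and 2 of the 14 members remained.

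Next came the stretch chr2:212457380-213950945, with 8 members in 1.494 Mb from inside ERBB4, the neuregulin receptor kinase needed for heart trabeculation, to IKZF2, an Ikaros-family transcription factor. Of the 8, 5 lie in the known span of ERBB4 and 3 between the pair. Control libraries had 6, 5 and 10 peaks and knockdown libraries 37, 33 and 22. The member chr2:213210771-213211017 was the strongest, at 79.9, 68 and 72.4. With lists of equal length 4 of its 8 members remained, at 6, 5 and 8 control peaks against 15, 14 and 14.

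The stretch chr12:85863559-88429000 also had 8 members, over 2.565 Mb from before the known position of RASSF9 to that of CEP290, a protein of the ciliary transition zone. The control libraries held 0, 4 and 4 peaks and the knockdown libraries 24, 21 and 19. At chr12:86268027-86268321 a member of 295 bp coincides with the known start of NTS, the gene of the gut and brain peptide neurotensin, and ranked at 56.7, 47.6 and 56.3. A weak member, chr12:86230120-86230487, coincides with the known start of RASSF9 and ranked at 6.81, 17.5 and 7.11. The members chr12:86651040-86651269, chr12:87077431-87077767 and chr12:87106205-87106452 lie in the known span of MGAT4C, of the N-acetylglucosaminyltransferase family. Of the 8 members 1 remained with lists of equal length.

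On chromosome 14 the stretch chr14:37667778-39449733, from MIPOL1 to before SEC23A, held 7 members and 4 protein-coding genes in RefSeq's order, FOXA1, TTC6, SSTR1 and CLEC14A. Peaks numbered 6, 3 and 9 in control and 36, 25 and 20 in knockdown. The member chr14:38063339-38063965, of 627 bp, lies in the known position of FOXA1, a pioneer factor of endoderm, with percentiles of 74.4, 29.3 and 28.1. A control call lay 1.02 kb from it. At chr14:38678335-38678738 a member of 404 bp lies in the known position of SSTR1, a somatostatin receptor, ranked at 42.2, 51 and 34.2, and a control call lay 1.32 kb away. The strongest of the 7, chr14:38991901-38992243, ranked at 69.9, 59.7 and 70.7. With lists of equal length 2 of the 7 members remained, at 6, 3 and 5 control peaks against 10, 8 and 7.

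Described next are 6 others of the stretches with 6 or 7 members. For 4 of these 6, no protein-coding gene lies in RefSeq's order between the pair of genes named, and those of chromosomes 18 and 5 are the others. Between AGBL1 and NTRK3, the receptor of neurotrophin-3, chr15:87372883-88418388 had 7, 6 and 8 control peaks, 32, 26 and 20 knockdown peaks and 7 members. The stretch chr18:39735396-41352826, which holds RIT2 and SYT4, a synaptotagmin, had 4, 5 and 5 against 27, 25 and 15 peaks and 7 members, 4 of them in the compact group above. Between NSUN3 and the ephrin receptor gene EPHA6, chr3:93782672-96336750 had 3, 1 and 3 against 24, 24 and 15 peaks and 7 members. Between PABPC4L and PCDH18, a protocadherin, chr4:135123404-138453186 had 3, 1 and 7 against 43, 17 and 17 peaks and 6 members. At or beside the known position of CDH18, a cadherin of the nervous system, chr5:17596521-19988006 had 3, 3 and 6 against 21, 17 and 13. Between TLE4 and TLE1, corepressors of the Groucho family, chr9:82677386-84280167 had 7, 7 and 6 against 31, 24 and 16. In none of these 6 stretches did the control and knockdown counts overlap for the lists as deposited. Nor did they over the whole genome beyond the limit, at 2201 to 4118 peaks in control and 8166 to 12764 in knockdown. None of the 6 held a control-only region, and such regions were 0.129% of all regions. With lists of equal length the counts met in 2 of the 6. Peaks on chromosome 9 were then 7, 7 and 1 in control and 8, 2 and 5 in knockdown, and those on chromosome 3 were 3, 1 and 3 against 5, 9 and 3. The other 4 stayed apart, with 7, 5 and 4 against 12, 10 and 8 on chromosome 15, 4, 5 and 4 against 9, 9 and 8 on chromosome 18, 3, 1 and 5 against 9, 7 and 6 on chromosome 4, and 3, 3 and 5 against 6, 7 and 6 on chromosome 5. Of the members of these 6 stretches, 1 on chromosome 18 and 1 on chromosome 9 remained. The counts include the members' own peaks, so no test was made.

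By chromosome, members were found on all 22 autosomes, from 3 on chromosome 19 to 198 on chromosome 2. As a share of all distant regions they ran between 8.96 and 12.9% on 19 chromosomes, around the 11.4% of the genome, with chromosome 6 the highest. The other 3 were chromosome 17 at 7.87% (31 of 394), chromosome 22 at 4.55% (9 of 198) and chromosome 19 at 2.13% (3 of 141). These 3 carry many genes and shared regions for their length, and little of them lay beyond the limit: 16.48, 4.724 and 9.635 Mb. Per Mb of such territory chromosome 19 had 0.311 members, against 1.38 on chromosome 16, the next lowest, and 3.25 on chromosome 15, the highest. Chromosomes 17 and 22 had 1.88 and 1.91 members per Mb, near the 2.11 of all autosomes. The share of knockdown-only regions that were distant was 25.5% on chromosome 4, 24.7% on chromosome 13 and 22.9% on chromosome 8, but 1.38% on chromosome 19 and 5.23% on chromosome 22.

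**Figure D5:**
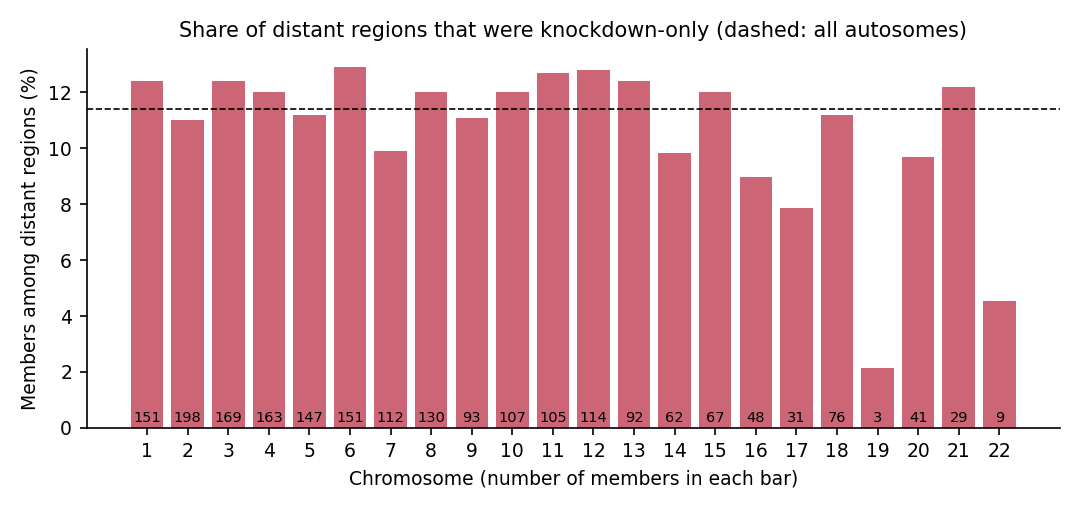
Members as a percentage of all regions over 100 kb from shared regions, by chromosome, with the number of members written in each bar and the share over all autosomes, 11.4%, as a dashed line. Chromosomes 19, 22 and 17 lie lowest, at 2.13, 4.55 and 7.87%, and the others lie between 8.96 and 12.9%.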

How the data were processed

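The files were 6 lists of ATAC-seq peaks on hg19. Per the submitters' processing notes Bowtie2 2.4.5 and bedtools 2.30.0 were used; the caller's version, its threshold and any Tn5 shift or duplicate removal remain not given in the sources used here. Peak names begin with MACS and carry 1 library each. The deposited score is the authors' peak caller's own value, a whole number with many ties, and was used only as a percentile within a list, so that percentiles move in steps. Depth is unknown.

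Overlapping peaks were merged in Python 3.11.15 (numpy 2.4.6, pandas 2.3.3), and distances run from edge to edge. Coordinates are 1-based. The exact test (scipy 1.17.1) compares distant with near knockdown-only sites over 3 knockdown libraries. The rule and its distances were tested on simulated data. Regions named are from the 5 members with the highest lowest percentile, those nearest the limit, groups of at least 5 members and stretches with the most members. A few of these are not reported here. Smaller groups, genes and single sites were added after values were seen. The members and lists were chosen with earlier results of these data known. Alternatives changed list length, limits, overlap rules and libraries. Sequences, repeats and gene overlaps were not analysed here, as no hg19 genome was used.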

Additional observations from a re-analysis of the deposited data

Results flagged for a closer look

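Chromosome X lies outside the rule. Treated the same way, it held 80 knockdown-only regions over 100 kb from a shared region, against 3 control-only regions. The 80 were 8.71% of its 919 distant regions.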

How the results depend on the processing

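Unknown depth limits all counts. The number of distant knockdown-only regions, 2098, was 552 with equal list lengths by score, 3909 and 913 with limits of 50 and 200 kb, 1396 when 5 libraries made a region shared and 5100 when 2 of 3 knockdown libraries sufficed, and ran from 1897 to 3915 with 1 library left out. Control-only counts, 26 as deposited, were 170, 59, 15, 17 and 175 under the same 5 settings and 30 to 117 with 1 library left out. Stretches that held a member, 1173, numbered 469 with equal lists, 2304 and 512 with the 2 limits and 1817 with 2 of 3 libraries (1091 to 1617 with 1 library left out). Groups of at least 5 members, 2 as deposited, numbered 0 with equal lists, 1 with the higher-scoring 50% of each list, 8 and 0 with the 2 limits, 1 with sharing in 5 libraries, 111 with 2 of 3 libraries, 1 and 9 with chain gaps of 50 and 200 kb, and 77 and 14 at a minimum of 3 or 4 members (the last chosen after seeing the data). With 1 library left out they ran from 3 to 45. Fewer libraries then had to meet the rule; other causes were not tested. The width difference of -8.5 bp stayed negative under all 13 alternatives, and ran from -16.67 to -5 bp with 1 library left out, with no p able to pass 0.05. It was -32 bp with the higher-scoring 50% of each list and -20.83 bp with equal lists. The percentile difference of 2.43 points was 0 with equal lists and 2.12 to 4.98 with 1 library left out. No paired analysis was possible because no test compared control with knockdown, as the rule leaves no control peak in a member; the test of distant against near sites pairs values within a library, not replicate numbers across groups.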
